A study of Rattus norvegicus with 6 samples.

Results

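RNAs encoded on the mitochondrial chromosome were followed in total RNA of rat liver and in sucrose gradient fractions of liver homogenates. Members were the loci that the deposited annotation places on chromosome MT of the rat assembly Rnor_6.0, without regard to their values. There were 12 such loci among the 33022 loci measured. They carried 37 gene symbols, 13 of proteins and 24 of other genes, a class that on this chromosome holds the transfer RNAs (tRNAs) and ribosomal RNAs. The libraries came from obesity-prone Sprague Dawley rats (male, 160 to 190 g at the start) fed a control diet (CD) or a Western diet (WD), high in milk fat and sucrose and with cholesterol, for 2 weeks, then fasted overnight and given their own diet again in the morning before the liver was taken. From each diet, total RNA, RNA of the light fraction (3 or fewer ribosomes) and RNA of the heavy fraction (4 or more ribosomes) were sequenced, which gave 6 libraries. RNA of 3 rats was pooled for each library, so each combination of diet and RNA had 1 library, no value had a replicate, and no difference could be set against the spread between rats.

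The mitochondrial chromosome is transcribed inside the organelle into long precursors, which are cut at the tRNAs into separate mRNAs. Its mRNAs encode core subunits of respiratory complexes I, III, IV and V and are read by mitochondrial ribosomes, which differ from those of the cytosol. They are therefore not read by cytosolic ribosomes, whereas the mRNAs of the partner subunits encoded in the nucleus are. What sets the sedimentation of the mitochondrial mRNAs was not tested. Most of the chromosome's protein genes lie on the same strand, and Mt-nd6 is the exception.

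The software merged neighbouring genes, so most of the 13 protein genes had no value of their own. The Mt-nd1 locus (positions 1 to 5008) held Mt-nd1 and Mt-nd2, both complex I subunits, with 8 other symbols. The Mt-co1 locus (positions 5323 to 14061) held 9 protein genes with 7 other symbols. These were Mt-co1, Mt-co2 and Mt-cox3 of complex IV, Mt-atp6 and Mt-atp8 of complex V, and Mt-nd3, Mt-nd4, Mt-nd4l and Mt-nd5 of complex I. The Mt-cytb locus (positions 14062 to 16057) held Mt-cytb, the cytochrome b of complex III, and 1 other symbol. Mt-nd6, a complex I subunit, was the only protein gene with a value to itself, and the file gives it the same positions as the Mt-co1 locus. The other 8 loci each carried a single symbol that is not of a protein, and the 4 that were listed with positions of their own spanned 66 to 72 bases.

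Values are FPKM, the fragments mapped to a transcript scaled by its length and by the size of the library, which Cufflinks sums over the transcripts of a locus. The 3 merged loci thus add mRNAs to other genes of the chromosome, which are tRNAs and ribosomal RNAs. The symbols do not say which of these are ribosomal RNAs. How much of a merged value, such as that of the Mt-nd1 locus, is ribosomal RNA and not mRNA is therefore unknown. A few fragments on a very short gene also weigh heavily. The file gives a lower and an upper bound for each value, and for 22 of the 24 values of the 4 loci with protein genes the lower bound was 0. The upper bound of Mt-nd6 in CD total RNA was 50.9 times its value of 223 FPKM. The Mt-cytb locus had the narrowest bounds, which in the heavy fraction ran from 13.1 to 178 FPKM in CD and from 6.12 to 119 FPKM in WD. Fragment counts are not part of the file, so the depth behind these values is unknown. Use of the strand in counting is not stated in the sources used here, and without it reads of Mt-nd6 and of the genes opposite to it cannot be told apart. Copies of mitochondrial sequence in the nuclear genome can share reads with these loci, and how such reads were treated was not stated either.

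Of the 12 loci, 9 averaged 1 FPKM or more across the 6 libraries, and 3 (AY172581.22, AY172581.10 and AY172581.2) were listed at 0 in every library. The comparisons below set the members beside the 10201 loci that carry a symbol and average 1 FPKM or more. Loci with a symbol summed to between 616030 and 866676 FPKM per library. Hepatocyte markers were high in each library, with a sum over 6 genes of 35696 to 124252 FPKM, whereas the sums were 26.6 to 543 FPKM for 5 red blood cell markers, 50.3 to 151 FPKM for 5 macrophage markers, 45.1 to 59.3 FPKM for 3 endothelial markers, 27.0 to 56.6 FPKM for 4 stellate cell markers and 0 to 4.35 FPKM for 2 cholangiocyte markers. Krt7 of the last list was at 0 in every library. The red blood cell sum was highest in the WD light fraction (543 FPKM, against 105 FPKM in the CD light fraction), and its part in the results below was not tested.

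In total RNA the 4 loci with protein genes differed little between the diets, and the merged loci among them were highly abundant. The Mt-co1 locus had 40774 FPKM in CD and 41154 FPKM in WD, the third highest value of all loci with a symbol in both libraries. The Mt-nd1 locus had 7194 FPKM in CD and 7261 FPKM in WD. The Mt-cytb locus had 1313 FPKM in CD and 1293 FPKM in WD. All 3 were thus nearly level between the diets, at WD to CD ratios of 1.01, 1.01 and 0.984. Mt-nd6 was far below them, with 223 FPKM in CD and 236 FPKM in WD, a ratio of 1.06.

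The light fraction held these RNAs at levels near or above those of total RNA, and the heavy fraction held much less. In the light fraction the Mt-co1 locus had 64680 FPKM in CD and 54991 FPKM in WD, and in the heavy fraction 4883 FPKM in CD and 6819 FPKM in WD. The Mt-nd1 locus had 9379 FPKM (CD) and 9488 FPKM (WD) in the light and 1935 FPKM (CD) and 1584 FPKM (WD) in the heavy fraction. Both loci were lower in each heavy library than in any light or total RNA library. The Mt-cytb locus had 1872 FPKM (CD) and 1116 FPKM (WD) in the light fraction and only 95.4 FPKM (CD) and 62.5 FPKM (WD) in the heavy fraction. Mt-nd6 had 520 FPKM (CD) and 1243 FPKM (WD) in the light and 104 FPKM (CD) and 97.1 FPKM (WD) in the heavy fraction. The order of the 4 loci in total RNA, with the Mt-co1 locus highest and Mt-nd6 lowest, was kept in the CD light fraction, whereas Mt-nd6 lay above the Mt-cytb locus in the WD light and in both heavy libraries.

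**Figure D1:**
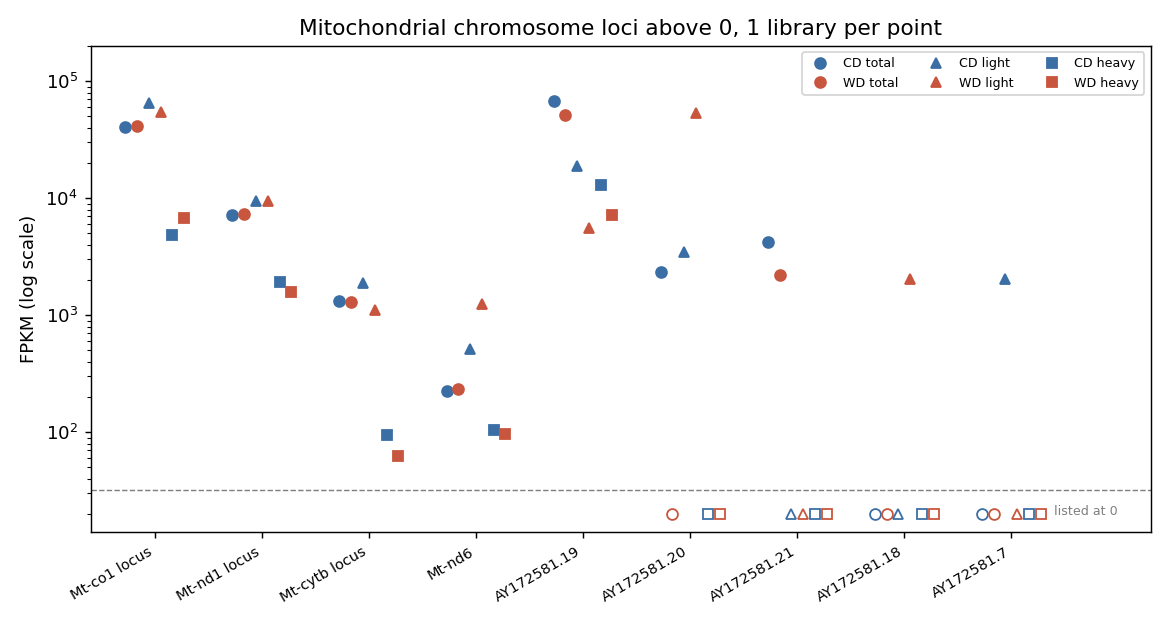
FPKM (log axis) of the 9 mitochondrial loci above 0 in at least 1 library, with 1 point per library, CD in blue and WD in red, circles for total RNA, triangles for the light and squares for the heavy fraction, and open symbols under the dashed line for values listed at 0. The heavy fraction squares lie below all other points for the 4 loci with protein genes, but not for AY172581.19.

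The 5 other loci above 0 behaved differently from one another. AY172581.19 was the only one of them above 0 in every library, with 68220 FPKM (CD) and 51650 FPKM (WD) in total RNA, 18927 FPKM (CD) and 5539 FPKM (WD) in the light fraction and 12936 FPKM (CD) and 7216 FPKM (WD) in the heavy fraction. Both total RNA values lay above its 4 fraction values, and its upper bounds were between 30.4 and 483 times its values. AY172581.20 had 2352 FPKM in CD total RNA, 3441 FPKM in the CD light fraction and 53810 FPKM in the WD light fraction, and was listed at 0 in WD total RNA and both heavy libraries. AY172581.21 was seen only in total RNA, with 4244 FPKM in CD and 2219 FPKM in WD. Each of the last 2 loci was above 0 in a single library, AY172581.7 with 2023 FPKM in the CD light and AY172581.18 with 2037 FPKM in the WD light fraction. Their upper bounds were 3.30 and 3.04 times the value, close to the factor of 3 that a value resting on 1 fragment would have with a bound of 2 Poisson standard deviations.

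The whole chromosome took 18.9% (CD) and 16.9% (WD) of the FPKM summed over loci with a symbol in total RNA, 14.9% and 14.8% in the light fraction, and 2.90% and 2.26% in the heavy fraction. The near-equal light fraction shares were made up differently. The 4 loci with protein genes gave 11.3% in the CD light and 7.71% in the WD light fraction, and AY172581.20 alone was 42.0% of the mitochondrial sum in the WD light fraction against 3.41% in the CD light fraction. With the 4 loci only, the shares were 7.52% (CD) and 8.11% (WD) in total RNA and 1.02% (CD) and 1.22% (WD) in the heavy fraction. A share of FPKM is relative to the other RNAs of the same library, so neither it nor a ratio of FPKM gives the share of molecules that sedimented in a fraction.

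**Figure D2:**
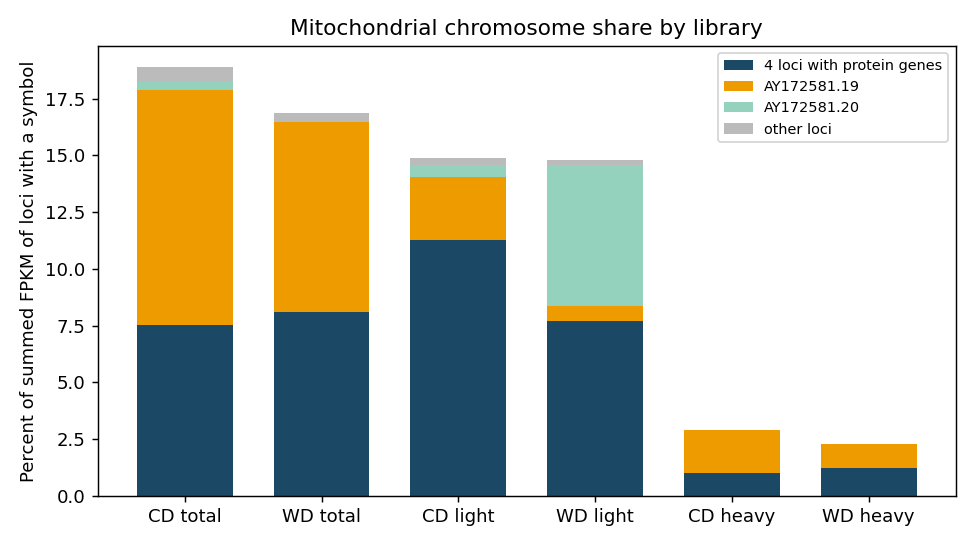
Percent of the FPKM summed over loci with a symbol that lay on the mitochondrial chromosome in each of the 6 libraries, stacked by locus. The 4 loci with protein genes together fell from 7.52% in CD total RNA and 11.3% in the CD light to 1.02% in the CD heavy fraction, and AY172581.20 makes up much of the WD light bar.

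The first comparison asked how these RNAs were divided between the fractions, as the log2 of heavy over light FPKM after adding 0.1 FPKM to each value. All 4 loci with protein genes were far lower in the heavy fraction under both diets. The log2 ratio was -4.29 in CD and -4.16 in WD for the Mt-cytb locus and -3.73 and -3.01 for the Mt-co1 locus. It was -2.28 in CD and -2.58 in WD for the Mt-nd1 locus and -2.32 and -3.68 for Mt-nd6. The light fraction was thus 4.85 to 19.6 times as high as the heavy in CD and 5.99 to 17.8 times as high in WD. Ratios of at least 1.5 or at most 0.75 are counted below as past a threshold. The study set these limits for the heavy to light ratio of CD relative to that of WD, and they are borrowed here for every ratio and applied to WD over CD. All 4 loci were at 0.75 or less, as were 36.6% of all loci compared in CD and 38.5% in WD, while 32.9% in CD and 31.4% in WD were at 1.5 or more. The median log2 ratio of the 4 was -3.02 in CD and -3.34 in WD, beside 0.012 and 0 over all loci.

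For each of the 4 loci, fewer than 1 in 10 nuclear loci had a lower ratio. Of 10192 nuclear loci compared, 4.36% in CD and 5.97% in WD had a lower ratio than the Mt-cytb locus, and 9.49% and 9.90% had a lower ratio than the Mt-nd1 locus. Among the 71 nuclear loci that averaged 1000 FPKM or more, 4 in CD and 5 in WD were at or below the Mt-cytb locus, 4 and 6 at or below the Mt-co1 locus, 9 and 7 at or below the Mt-nd1 locus and 9 and 5 at or below Mt-nd6. For these 71 loci the median log2 ratio was 0.51 in CD and 1.07 in WD. A locus can reach this mean through a high light fraction value alone, so some of the low ratios follow from the filter. RNaseP_nuc and 7SK, given below, are among those counted, and both were far higher in the WD than in the CD light fraction.

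The mRNAs of nuclear subunits of the same complexes lay on both sides of an even division. Of 62 nuclear subunits of complexes I, III, IV and V, 22 were at least 1.5-fold higher in the heavy fraction in CD and 17 were at a ratio of 0.75 or less, with a median log2 ratio of 0.31. In WD the counts were 24 and 21 and the median 0.30. Listed at 0 in a fraction were 3 in CD and 1 in WD, and without them the medians were 0.32 and 0.30. The share of all loci at least 1.5-fold higher was 32.9% in CD and 31.4% in WD, and the share at 0.75 or less was 36.6% and 38.5%. By complex, the median was 0.17 (CD) and -0.12 (WD) for 29 subunits of complex I, 0.59 and 0.81 for 8 of complex III, 0.39 and -0.13 for 11 of complex IV and 0.25 and 0.31 for 14 of complex V. Uqcrc2, a core subunit of complex III beside cytochrome b, had 38.6 FPKM in the light and 177 FPKM in the heavy fraction in CD and 39.1 and 161 FPKM in WD, the reverse of the Mt-cytb locus. Cox4i1, a complex IV subunit, had 481 and 703 FPKM in CD and 463 and 914 FPKM in WD, and Atp5b, the catalytic beta subunit of complex V, had 309 and 809 FPKM in CD and 356 and 751 FPKM in WD. These 3 were chosen after their values were seen.

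At or below the ratio of the Mt-nd1 locus were 2 of the 62 nuclear subunits in CD and 4 in WD, named here for that reason after their values were seen. In CD these were Ndufa13 of complex I, at 9.45 FPKM in the light fraction and listed at 0 in the heavy, and Uqcrb of complex III, at 72.5 and 11.6 FPKM. In WD they were Ndufs5 (129 and 8.39 FPKM) and Ndufb9 (123 and 13.3 FPKM) of complex I, Cox6b1 of complex IV (106 and 16.8 FPKM), and Uqcr10 of complex III (90.9 FPKM and listed at 0). None of the 6 was this low under both diets.

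Other lists place these values. Of 28 mRNAs of secreted hepatocyte proteins, 20 in CD and 21 in WD were at least 1.5-fold higher in the heavy fraction and 0 were at 0.75 or less, with medians of 1.26 and 1.10, beside 32.9% and 31.4% of all loci at least 1.5-fold higher. For 63 cytosolic ribosomal proteins, 33 in CD and 54 in WD were at 0.75 or less, with medians of -0.63 and -1.99. For 68 proteins of the mitochondrial ribosome, which are encoded in the nucleus and read in the cytosol, 29 in CD and 31 in WD were at 0.75 or less, with medians of -0.0062 and -0.19. For all loci compared, the share at 0.75 or less was 36.6% in CD and 38.5% in WD. Listed at 0 in a fraction were 14 (CD) and 12 (WD) of the cytosolic and 10 and 8 of the mitochondrial ribosomal proteins. Without them the medians were -0.84 and -1.83 for the cytosolic and 0.0083 and -0.10 for the mitochondrial ones. The shares of all loci also include loci listed at 0 in a fraction.

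Some RNAs that no ribosome reads were also lower in the heavy fraction. Of 10 non-coding RNAs that averaged 1 FPKM or more, 7 in CD and 5 in WD were at a ratio of 0.75 or less, with a median log2 ratio of -2.63 and -1.44. Of all loci, 36.6% in CD and 38.5% in WD were at 0.75 or less. The counts include U7 and U6atac in CD and U6atac and U2 in WD. These were listed at 0 in the heavy fraction and passed the filter through light fraction values, so their low ratios were set in advance. Above 0 in both fractions were 5, where the median was -2.67 in CD and -2.84 in WD. Among these 5, Metazoa_SRP and U1 were not at 0.75 or less in WD. RNase_MRP, the RNA of a nuclear ribonuclease, had 95172 FPKM in the light and 14906 FPKM in the heavy fraction in CD and 157738 and 22043 FPKM in WD, ratios of -2.67 and -2.84, both within the range of the 4 mitochondrial loci. The RNA of ribonuclease P, RNaseP_nuc, had 331 and 13.7 FPKM in CD, a ratio of -4.59, and 7SK, which binds a transcription elongation factor, had 273 and 10.5 FPKM in CD, a ratio of -4.69. Both were below the lowest mitochondrial locus in CD. In WD they were far higher in the light fraction (20925 and 49134 FPKM) and had 13.3 and 20.5 FPKM in the heavy fraction, ratios of -10.60 and -11.22. Metazoa_SRP, the RNA of the signal recognition particle, had 3474 and 578 FPKM in CD and 1096 and 1064 FPKM in WD, ratios of -2.59 and -0.043. The spliceosomal U1 had 1585 and 1165 FPKM in CD and 537 and 1574 FPKM in WD, ratios of -0.44 and 1.55. The other 5 were seen in few libraries and were listed at 0 in both heavy libraries. These were U7 (2548 FPKM in the CD light fraction only), U6atac (208 FPKM in the CD and 1532 FPKM in the WD light fraction), U6 (779 FPKM in CD total RNA only), U4 (101 FPKM in WD total RNA only) and U2 (22.8 FPKM in the WD light fraction only). Each name here stands for 1 locus. Where a symbol recurred, that was the locus with the highest mean over these same 6 libraries, and other copies are not covered.

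**Figure D3:**
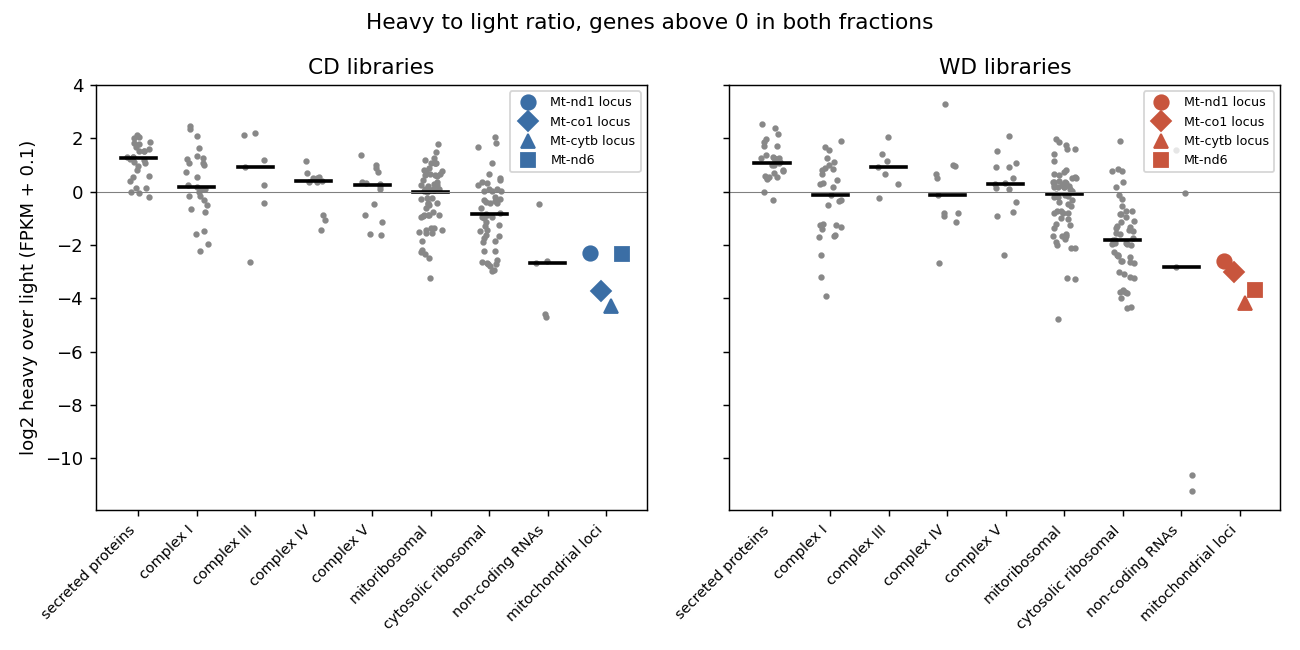
Log2 of heavy over light FPKM (0.1 added to each) for genes of 8 lists above 0 in both fractions (grey points, bars at the list median) and for the 4 mitochondrial loci with protein genes (coloured symbols), in CD (left) and WD (right). The 4 loci lie between -4.29 and -2.28 in CD and between -4.16 and -2.58 in WD, under the medians of the subunit lists.

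Each fraction was also set beside total RNA. The study describes removal of reads that map to ribosomal RNA for the fractions only, and its part in ratios to total RNA was not tested. For the gradients, liver was homogenized with detergents and spun, and only the supernatant was loaded. Total RNA was extracted from liver, with no such spin described. The part of this spin in ratios to total RNA was not tested. In the heavy fraction all 4 loci were at 0.75 or less of total RNA under both diets (background 34.1% of loci in CD and 35.1% in WD), with heavy to total ratios of 0.0727 (CD) and 0.0484 (WD) for the Mt-cytb locus, 0.120 and 0.166 for the Mt-co1 locus, 0.269 and 0.218 for the Mt-nd1 locus, and 0.466 and 0.412 for Mt-nd6. The light fraction differed less from total RNA than the heavy fraction did at the 3 merged loci, whereas at Mt-nd6 it differed more. Its ratio to total RNA was 1.30 (CD) and 1.31 (WD) for the Mt-nd1 locus, 1.59 and 1.34 for the Mt-co1 locus, 1.43 and 0.864 for the Mt-cytb locus, and 2.33 and 5.26 for Mt-nd6. At least 1.5-fold higher than total RNA were 2 of the 4 in the CD light fraction (23.9% of all loci) and 1 in the WD light fraction (28% of all loci).

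The loci did not keep their proportions between the fractions. The Mt-co1 locus was 5.67 times as high as the Mt-nd1 locus in both total RNA libraries, 6.90 times in the CD light and 5.80 times in the WD light fraction, but 2.52 times in the CD heavy and 4.30 times in the WD heavy fraction. The Mt-nd1 locus was 5.48 and 5.62 times as high as the Mt-cytb locus in total RNA of CD and WD, 5.01 and 8.50 times in the light fraction and 20.3 and 25.3 times in the heavy fraction. The Mt-nd1 locus thus kept a larger part in the heavy fraction than the Mt-cytb locus did. Besides protein genes, the Mt-nd1 locus holds 8 other symbols and the Mt-cytb locus 1. The contrast is therefore not one of mRNAs alone, and the part of ribosomal RNAs or tRNAs in it was not tested.

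The next comparison asked which mitochondrial loci differed between WD and CD. In total RNA 0 of the 4 loci were past either threshold, compared with 17.7% of all loci at least 1.5-fold higher and 22.7% at 0.75 or less, and their log2 ratios lay between -0.023 and 0.082, against a median of 0.022 over all loci. The sign at the Mt-cytb locus depended on the scaling, since its ratio of -0.023 became 0.038 after rescaling of the libraries to 1 nuclear sum.

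Between the light fractions the loci moved in different directions. Mt-nd6 was 2.39-fold higher in WD (log2 ratio 1.26) and the Mt-cytb locus was at 0.597 of its CD value (-0.75), while the Mt-co1 locus (-0.23) and the Mt-nd1 locus (0.017) stayed within the thresholds. That makes 1 of 4 higher and 1 of 4 lower, where 25.9% of all loci were at least 1.5-fold higher and 26.8% at 0.75 or less. Rescaling to the same nuclear sum moved the median of nuclear loci by -0.31 in this comparison, and with it the Mt-co1 locus to -0.59, past the lower threshold, and the Mt-nd1 locus to -0.34. The nuclear sum was 577433 FPKM in the CD light and 738453 FPKM in the WD light fraction. A few RNAs with large values, such as RNase_MRP, 7SK and RNaseP_nuc above, were higher in WD and weigh in that sum. Their part in the rescaled ratios was not tested. Of 9416 nuclear loci above 0 in both light libraries, 8.28% had a larger ratio than Mt-nd6.

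Between the heavy fractions the Mt-cytb locus was lower in WD (log2 ratio -0.61, past the lower threshold as were 25.8% of all loci), and the other 3 were within the thresholds, at 0.48 for the Mt-co1 locus, -0.29 for the Mt-nd1 locus and -0.096 for Mt-nd6. With the thresholds applied to CD over WD, the Mt-co1 locus too was past one, as higher in WD (1 of 4 loci and 26.9% of all loci), and the Mt-cytb locus remained past as lower (1 of 4 and 20.6%). For the Mt-cytb locus the WD value of 62.5 FPKM lay within the bounds of the CD value, 13.1 to 178 FPKM, and the CD value of 95.4 FPKM within those of the WD value.

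The change in the heavy to light ratio is the measure that the study used for ribosome density, here applied to RNAs that cytosolic ribosomes do not read. It was 0.72 on the log2 scale at the Mt-co1 locus, a ratio of 1.64, and -1.35 at Mt-nd6, a ratio of 0.391. It was -0.31 at the Mt-nd1 locus and 0.14 at the Mt-cytb locus. Past the thresholds were thus 1 of the 4 loci upward, as were 27.7% of all loci, and 1 downward, as were 36.1%, and the median of -0.084 lay near that of all loci (-0.021). In the study's direction, CD over WD, the same loci were past the thresholds, as were 32.9% of all loci at 0.75 or less (higher in WD) and 30.9% at 1.5 or more (lower in WD). The heavy fraction of Mt-nd6 was nearly level between the diets (104 and 97.1 FPKM), and its change came from the light fraction (520 and 1243 FPKM). For the Mt-co1 locus the heavy fraction was higher and the light fraction lower in WD. With total RNA as the denominator, the change was 0.47 at the Mt-co1 locus and -0.18 at Mt-nd6, both within the thresholds, and -0.59 at the Mt-cytb locus, past the lower threshold. By that measure 0 of the 4 loci were past the upper and 1 past the lower threshold, as were 26.7% and 31% of all loci. In the study's direction the Mt-co1 locus was past as well, with a CD over WD ratio of 0.723, so that 1 locus was higher in WD (32.1% of all loci) and 1, the Mt-cytb locus, lower (25.7% of all loci). When libraries were rescaled to the same nuclear sum, which moved the median of nuclear loci by 0.29, the change was 1.04 at the Mt-co1 locus, -1.03 at Mt-nd6 and 0.016 at the Mt-nd1 locus, whose sign therefore depended on the scaling. These comparisons share libraries with those above and are not independent of them.

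**Figure D4:**
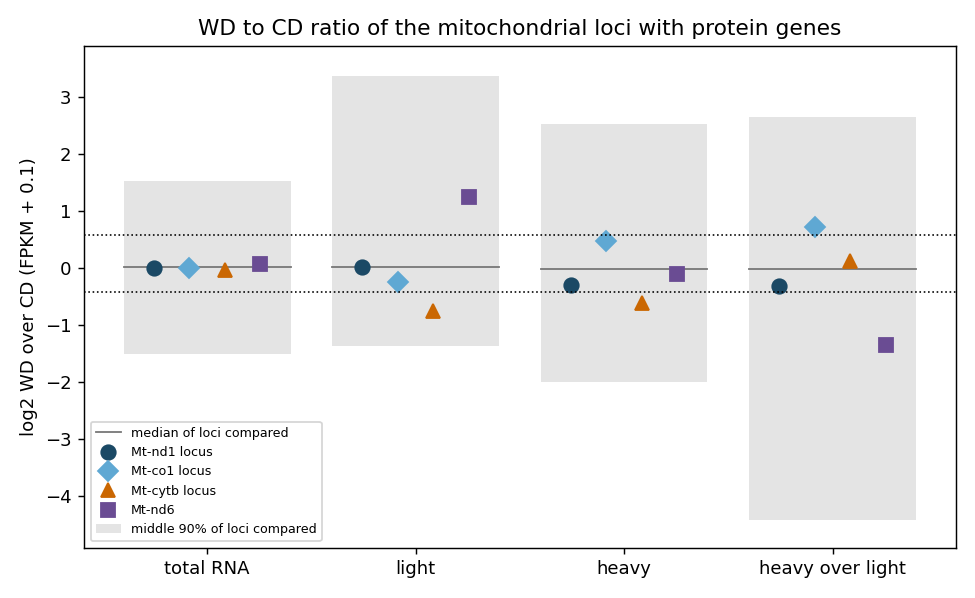
Log2 ratio of WD to CD (FPKM plus 0.1) of the 4 mitochondrial loci with protein genes in total RNA, the light fraction, the heavy fraction and the heavy to light ratio, with grey bars for the middle 90% of the 10201 loci compared, a line at their median and dotted lines at ratios of 1.5 and 0.75. The 4 loci lie within 0.10 of one another in total RNA and spread over 2.07 in the heavy to light ratio.

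AY172581.19 went its own way. It was at 0.757 of its CD value in WD total RNA, at 0.293 in the light and at 0.558 in the heavy fraction. Its log2 heavy to light ratio was -0.55 in CD and 0.38 in WD, so its change of 0.93 was past the upper threshold, and it was -0.44 with total RNA as the denominator. AY172581.21 was lower in WD than in CD total RNA (2219 and 4244 FPKM). No ratio is given for loci listed at 0 in 1 of the libraries compared.

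Genes that make, process and translate mitochondrial RNA are encoded in the nucleus, and 56 of them averaged 1 FPKM or more, namely 10 of transcription and DNA maintenance, 28 of RNA processing and stability and 18 of translation and insertion. In total RNA, 13 were at least 1.5-fold higher in WD and 11 at 0.75 or less, with a median log2 ratio of 0.094. Of all loci, 17.7% were at least 1.5-fold higher and 22.7% at 0.75 or less. In the heavy to light ratio, 17 were at least 1.5-fold higher and 16 at 0.75 or less in CD and 19 and 18 in WD, with medians of 0.050 and -0.081. With the 6 (CD) and 3 (WD) genes listed at 0 in a fraction left out, the medians were 0.26 and 0.018. Of all loci, 32.9% in CD and 31.4% in WD were at least 1.5-fold higher and 36.6% and 38.5% at 0.75 or less. The change of that ratio had a median of -0.44, beside -0.021 over all loci. Past the thresholds were 19 upward and 29 downward, beside 27.7% and 36.1% of all loci. The 29 include Cox14, Hsd17b10 and Mtrf1l, which reached the mean of 1 FPKM only through the WD light fraction.

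Most of these mRNAs were at a few FPKM, and several were listed at 0 in a library. The highest heavy to light ratios in CD were those of Rpusd3, a pseudouridine synthase (5.30 and 45.6 FPKM in the light and heavy fractions, log2 ratio 3.08), of Gfm1, a mitochondrial elongation factor (7.59 and 37.5 FPKM, 2.29), and of Polrmt, the mitochondrial RNA polymerase (2.17 and 10.1 FPKM, 2.17). The lowest in CD were all listed at 0 in the heavy fraction, with 3.41 FPKM in the light fraction for Ptcd2, 2.62 FPKM for the initiation factor Mtif2 and 1.25 FPKM for the release factor Mtrf1l. In WD the highest were Rpusd4, another pseudouridine synthase (0.368 and 2.52 FPKM, 2.48), Rpusd3 (5.37 and 24.5 FPKM, 2.17) and Ptcd1 (1.07 and 4.88 FPKM, 2.09). The lowest in WD were again listed at 0 in the heavy fraction, with 93.9 FPKM in the light fraction for Cox14, a complex IV assembly factor, 28.2 FPKM for Hsd17b10, a subunit of mitochondrial ribonuclease P, and 3.46 FPKM for Mtrf1l. Cox14 was listed at 0 in every library but the WD light fraction. Cox14, Hsd17b10 and Mtrf1l reached the mean of 1 FPKM only through the WD light fraction, so their low ratios in WD were set in advance. Rpusd3 was thus among the 3 highest under both diets and Mtrf1l among the 3 lowest.

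In total RNA the lowest WD to CD ratios were those of Trmu, a tRNA-modifying enzyme (2.48 FPKM in CD and 0.670 FPKM in WD, log2 ratio -1.75), Ssbp1, which binds single-stranded mitochondrial DNA (58.4 and 25.1 FPKM, -1.21), and Rpusd3 (13.8 and 6.07 FPKM, -1.17). The highest were those of Pus1, a pseudouridine synthase listed at 0 in CD with 3.47 FPKM in WD, Fastkd2 (1.57 and 4.92 FPKM, 1.59) and Gtpbp3, which modifies tRNAs (1.12 and 3.53 FPKM, 1.57). Ssbp1 was the most abundant of these 6. Between the light fractions the lowest were Rpusd4 (1.60 FPKM in CD and 0.368 FPKM in WD, -1.86), Tfb1m, which methylates mitochondrial ribosomal RNA (5.55 and 1.70 FPKM, -1.65), and Gtpbp3 (1.64 and 0.504 FPKM, -1.53). The highest were Cox14 and Hsd17b10, both listed at 0 in CD, and Tufm, a mitochondrial elongation factor (2.28 and 13.6 FPKM, 2.53). Cox14 and Hsd17b10 passed the filter only through their WD light values, so their place here was set in advance.

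Between the heavy fractions the lowest were Rexo2, an oligoribonuclease (15.1 FPKM in CD and 1.84 FPKM in WD, -2.97), Trmt10c, a subunit of mitochondrial ribonuclease P (6.24 and 1.11 FPKM, -2.39), and Mgme1, a mitochondrial exonuclease (2.98 and 0.728 FPKM, -1.90). The highest were all listed at 0 in CD, with 3.29 FPKM in WD for Mtif2, 1.31 FPKM for the RNA helicase Supv3l1 and 0.895 FPKM for Ptcd2. In the change of the heavy to light ratio the lowest were Cox14, Hsd17b10 and Rexo2 (-2.49), and the highest were Mtif2, Ptcd2 and Gtpbp3 (2.94). The place of Cox14 and Hsd17b10 was again set in advance by the filter. Of these 6, Rexo2 and Gtpbp3 were above 0 in all 4 fraction libraries.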

How the data were processed

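The authors depleted ribosomal RNA with a RiboErase kit, mapped the reads with TopHat on Rnor_6.0, and estimated levels with Cufflinks, Cuffmerge and Cuffnorm. The values they deposited are FPKM with bounds, in 1 table of all 6 libraries. For ribosome profiling, their name for the analysis of the fractions, the methods add that reads matching ribosomal RNA in Bowtie were dropped and perfect matches to the genome kept. The annotation and the use of strand are not given in the sources used here. With 1 library per group no p-value was computed.

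Compared were loci that carry a symbol, whose estimate succeeded (1 failed), and that averaged 1 FPKM or more. Log2 ratios were taken after adding 0.1 FPKM, with thresholds of 1.5 and 0.75, which the study set for heavy to light ratios of CD over WD and which were applied here to WD over CD and to ratios between RNAs, using Python 3.11.15, pandas 2.3.3, numpy 2.4.6 and matplotlib 3.10.9. Starts were counted from 1. List genes were taken from loci with a single symbol, at the highest mean where a symbol recurred. The ratio and threshold step was tested on simulated data.

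The members and lists were chosen with earlier results of these data known. Named were all mitochondrial loci, the non-coding RNAs found, and the 3 highest and 3 lowest nuclear genes of mitochondrial RNA and protein synthesis in the 6 comparisons of fractions or diets. Alternatives were pseudocounts of 1 and 0.01 FPKM, rescaling, centring, total RNA as the denominator, filters at 0.1 and 10 FPKM or none, short loci left out of the summed FPKM, and loci with a single symbol. Length was the listed span, so AY172581.19, AY172581.20 and AY172581.21, listed with the positions of merged loci, were not left out. That alternative therefore says nothing about them. Thresholds applied to CD over WD were an alternative chosen after seeing the data.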

Additional observations from a re-analysis of the deposited data

Results flagged for a closer look

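AY172581.20 differed between WD and CD in opposite directions in total RNA and in the light fraction. It was listed at 0 in WD total RNA against 2352 FPKM in CD, and had 53810 FPKM in the WD light fraction against 3441 FPKM in CD. With 1 library per group this difference was not tested. The upper bound of the WD light value was 6.86 times the value and that of the CD light value 33.4 times. Of 9416 nuclear loci above 0 in both light libraries, 22 had a larger WD to CD ratio in the light fraction.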

How the results depend on the processing

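No paired analysis was possible because each group had 1 library, and no library could be left out. With no replicates, a log2 value was taken as unmoved within a factor of 1.5, and so were counts and shares. Under pseudocounts of 1 and 0.01 FPKM and centring on the median of nuclear loci, all medians and counts over the 4 loci with protein genes stayed within that limit. Rescaling to the same nuclear sum moved the number at 0.75 or less between the light fractions from 1 to 2. With total RNA as the denominator, the median of the WD heavy ratio was -2.39 in place of -3.34, the number of loci whose heavy fraction ratio was at least 1.5-fold higher in WD than in CD was 0 in place of 1, and the change at AY172581.19 turned from 0.93 to -0.44. Applying the thresholds to CD over WD, chosen after seeing the data, moved the number called higher in the WD heavy fraction from 0 to 1 (the Mt-co1 locus) and, with total RNA as the denominator, gave 1 called higher and 1 lower. Mt-nd6, the single-symbol locus, alone gave -2.32 for the CD heavy to light ratio and 1.26 for the WD to CD light ratio, against medians of -3.02 and -0.11. At a mean of at least 10 FPKM, the loci at least 1.5-fold higher in WD were 8.77% in total RNA, 17.1% in the light and 13.3% in the heavy fraction. Counting only the 4 loci with protein genes, the mitochondrial share was 7.52% in CD total, 8.11% in WD total, 7.71% in WD light, 1.02% in CD heavy and 1.22% in WD heavy. The causes were not tested, beyond what fewer loci by construction give. Unknown depth, bounds that reach 0 and merged loci limit each value.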
